A study of Mus musculus with 18 samples.

Results

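Loss of Dmrt3 was examined in tissue that already lacked Dmrt5. The 5 libraries labelled Dmrt3;Dmrt5 KO (double KO below) were compared with the 4 labelled Dmrt5 KO, so 9 of the 18 libraries of the study entered the comparison directly. The source was cortex dissected from embryos of the C57BL/6 mouse strain at stage E12.5. The Dmrt5 KO embryos carried the genotype Dmrt5-/- and the double KO embryos Dmrt3-/-;Dmrt5-/-, so the missing Dmrt5 was common to both groups and Dmrt3 differed. The remaining libraries, 4 of WT and 5 of Dmrt3 KO (Dmrt3-/-), entered the same model and gave the effect of Dmrt3 loss where Dmrt5 was intact. The labels do not say how the alleles were made, whether a library is 1 embryo, or whether libraries of a genotype came from separate litters. The p-values therefore measure the spread between these libraries, part of which may be technical.

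Dmrt3 and Dmrt5 belong to the DM-domain family of zinc-finger transcription factors, named after doublesex and mab-3, and both are expressed in progenitors of the dorsal telencephalon, the pallium, in a gradient that is highest near the dorsal midline. The midline region, the cortical hem, secretes Wnt and Bmp proteins that pattern the neighbouring cortex and hippocampus. Pallial progenitors express proneural factors such as Neurog2 and give rise to glutamatergic neurons through Eomes-positive intermediate progenitors, whereas progenitors of the subpallium express Gsx2 and Dlx genes and give rise to GABAergic neurons. Because whole tissue was sequenced, fewer cells of a type and less RNA per cell cannot be told apart in any value given here.

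The targeted transcripts followed the labels. Levels are normalised read counts, as CPM (read counts scaled to a common library size). Dmrt3 (ENSMUSG00000042372, chr19:25610301-25623921, mm10) stood at 45.7, 30.3, 48.5 and 41.6 CPM in Dmrt5 KO replicates 1, 2, 4 and 5. In double KO replicates 1 to 5 it had 0, 0, 2, 9 and 8 counts, or 0 to 0.383 CPM. Dmrt3 fell by 7.94 on the log2 scale (SE 0.43, edgeR quasi-likelihood test, Benjamini-Hochberg adjusted p = 1.26e-08). Dmrta2, the current symbol of Dmrt5 (ENSMUSG00000047143, chr4:109978053-109983687), was at 25.1, 4.31, 6.94 and 6.57 CPM in Dmrt5 KO and at 1.66, 4.16, 4.36, 4.90 and 2.65 CPM in the double KO, against 194 ± 29.7 CPM in WT (SD, n = 4). Dmrt5 KO replicate 1 thus held more Dmrta2 transcript than any other Dmrt5-null library. It also held 26.7 CPM of the female transcript Xist beside 111 CPM of Y-linked transcripts, whereas the 2 other male Dmrt5 KO libraries held 0.240 and 0.279 CPM of Xist. The part of Dmrt5 KO replicate 1 in the results was not tested beyond the fits without it. WT replicate 2, which entered the shared model, also held both, at 462 CPM of Xist and 13.6 CPM of Y-linked transcripts. The part of that WT library was not tested. Dmrta2 was not called between the groups (log2 fold change -1.58 ± 0.41 SE, adjusted p = 0.190, and -0.74 without Dmrt5 KO replicate 1).

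**Figure D1:**
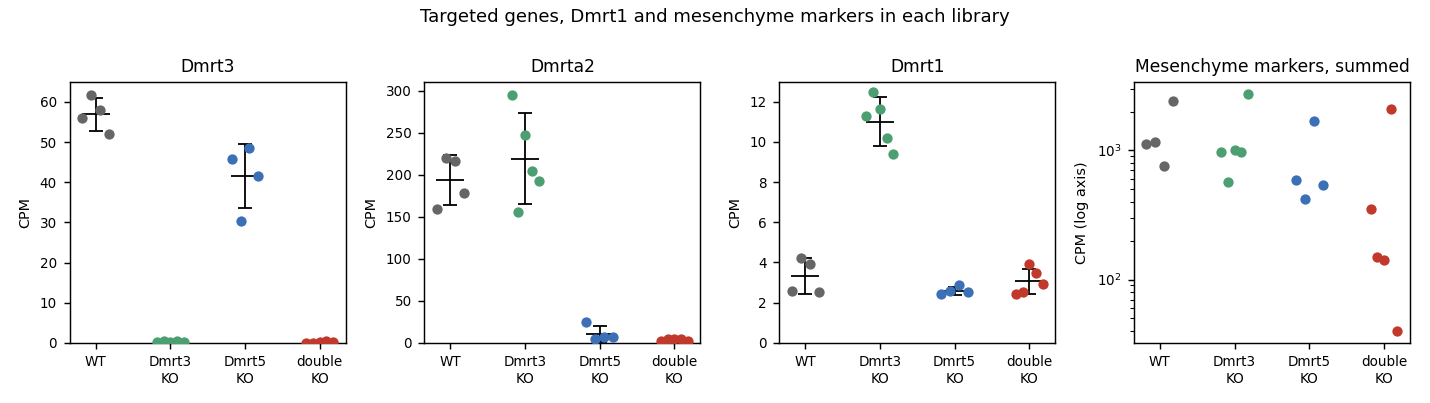
Normalised read counts (CPM) of Dmrt3, Dmrta2 and Dmrt1 and the summed CPM of 10 mesenchyme markers (log axis) in each of the 18 libraries, by genotype; points are libraries and, in the first 3 panels, bars give the mean and SD. Dmrt3 is near 0 in both genotypes lacking it, 1 Dmrt5 KO library holds 25.1 CPM of Dmrta2, and 1 double KO library holds 2099 CPM of mesenchyme markers.

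The 9 libraries held 21170996 to 33072896 counts each. Lhx2, a transcription factor of cortical progenitors, was present in all of them, at 330 to 389 CPM in Dmrt5 KO and at 212 to 303 CPM in the double KO. RNA of the ventral telencephalon was present too, since Nkx2-1, a marker of the medial ganglionic eminence, stood at 126 to 187 and 144 to 350 CPM. Summed over 10 markers, mesenchyme RNA ran from 420 to 1689 CPM in Dmrt5 KO and was 350, 151, 142, 2099 and 40.0 CPM in double KO replicates 1 to 5. All 10 markers were detected in each genotype. By Xist and Y-linked transcripts, 3 Dmrt5 KO libraries were male and 1 female, and 2 double KO libraries were male and 3 female. On the first principal component of the 500 most variable genes, which held 44.5% of the variance, double KO replicates 4 and 5 marked the ends of their group (scores of -15.6 and 48.7, the other 3 between 24.5 and 32.1).

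Genes lower in the double KO than in Dmrt5 KO outnumbered those higher in it. Of 16236 genes tested, 54 were called at an adjusted p under 0.05 (0.333%). Of these, 52 fell (0.320%), Dmrt3 among them, and 2 rose (0.0123%). With DESeq2, 96 of 25606 genes were lower (0.375%) and 11 higher (0.0430%), and 51 of the 52 and both of the 2 were called again. Among the 52 genes that fell, 45 fell more than 2-fold, and for 51 every double KO library lay below every Dmrt5 KO library, against 1.37% of all tested genes (the overlapping one was Abcg5). For both genes that rose every double KO library lay above every Dmrt5 KO library, against 0.407% of all tested genes. Calls and overlap rest on the same values, so the lack of overlap is not separate evidence for the called genes. The median fall of the 51 genes other than Dmrt3 was 3.72-fold, while the median log2 fold change of all tested genes was 0.01. The genes comprised 43 protein-coding genes, 6 pseudogenes and 3 other transcripts. Without Dmrt5 KO replicate 4, 33 genes were lower. With only the 9 libraries of the 2 genotypes in the fit 19 were, and 29 of the 54 calls were lost, Neurog1, Otx1, Emx2, Dbx1, Tfap2e, Dct and Gcg among them. Without Dmrt5 KO replicate 1 and double KO replicate 5, left out together after seeing the data, 33 genes were lower. Embryo sex as a factor in the fit ended 11 of the 54 calls, Emx2, Abcg5, Foxb2, Mcidas and Foxn4 among them.

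**Figure D2:**
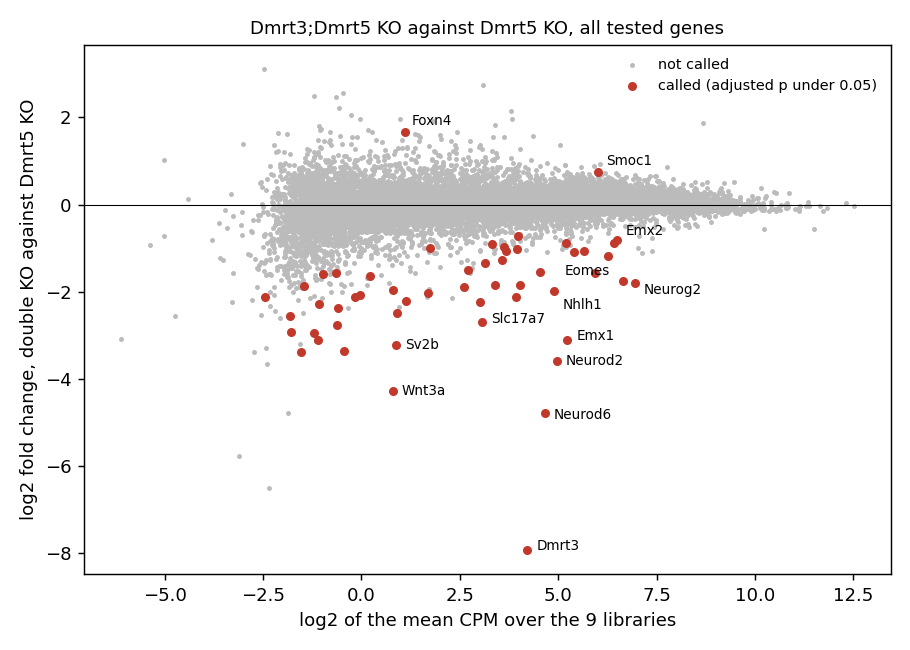
Log2 fold change of the double KO against Dmrt5 KO (y axis) over the log2 of the mean CPM in the 9 libraries (x axis) for all 16236 tested genes. Red points are the 54 called genes, of which 52 lie below 0 and 2, Smoc1 and Foxn4, above it.

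Several genes that drive neuron production in the pallium fell. Of 10 tested members of the pallial proneural and intermediate progenitor list, 6 fell, none rose, and the median log2 fold change was -1.45. Over all tested genes, 0.320% fell and 0.0123% rose. The lists were chosen with earlier results of these data known, so the list counts and medians here and below are not separate evidence. Neurog2, the proneural factor that specifies glutamatergic fate (chr3:127633135-127635631), stood at 203, 170, 199 and 245 CPM in Dmrt5 KO and at 55.4, 64.3, 54.9, 47.1 and 72.8 CPM in the double KO. All double KO libraries were low and the groups were far apart. The fall was 3.47-fold (log2 -1.79 ± 0.16 SE, adjusted p = 8.01e-06). Eomes (Tbr2), the defining factor of intermediate progenitors (chr9:118478212-118486132), was at 161, 137, 178 and 180 CPM against 46.6, 47.1, 45.1, 42.4 and 62.3 CPM. It fell 3.37-fold (log2 -1.75 ± 0.17 SE, adjusted p = 1.53e-05), and the double KO library with most Eomes, replicate 5, remained below every Dmrt5 KO library. Nhlh1, a helix-loop-helix factor of newborn neurons, was at 53.2, 42.8, 51.5 and 55.2 CPM against 10.1, 13.8, 10.7, 13.0 and 16.2 CPM. Its 3.97-fold fall had the smallest adjusted p after Dmrt3 (log2 -1.99 ± 0.15 SE, adjusted p = 1.09e-06).

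Further helix-loop-helix factors of this list fell as well. Neurod1, which acts downstream of Neurog2, had a mean of 27.4 ± 2.97 CPM (n = 4) in Dmrt5 KO and 7.67 ± 1.46 CPM (n = 5) in the double KO (log2 -1.84, adjusted p = 5.57e-05). Neurog1, the paralog of Neurog2, had 36.4 ± 2.53 and 12.4 ± 4.40 CPM (log2 -1.56, adjusted p = 0.00187). Neurod4 had 13.2 ± 1.08 and 5.22 ± 2.10 CPM (log2 -1.34, adjusted p = 0.0220), but lost its call in 6 of the 9 fits that left out 1 library. The 4 members not called were Ppp1r17, Nhlh2, Mfng and Gadd45g (log2 -0.61, -0.47, -0.10 and 0.09). Gadd45g overlapped fully between the groups, with 98.0 to 149 CPM in Dmrt5 KO and 79.8 to 172 CPM in the double KO.

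Among genes of differentiating glutamatergic neurons, 3 of 12 tested members fell and none rose, against 0.320% and 0.0123% of all tested genes. The median log2 fold change was -0.57, and the 3 included the largest fall of any called gene after Dmrt3. Neurod6 (Nex), a factor of postmitotic cortical neurons (chr6:55677822-55681263), stood at 68.4, 37.4, 41.6 and 70.8 CPM in Dmrt5 KO and at 6.02, 0.868, 0.979, 0.639 and 1.48 CPM in the double KO. Only double KO replicate 1 kept more than 2 CPM. The fall was 27.7-fold (log2 -4.79 ± 0.59 SE, adjusted p = 0.000396), and 54.4-fold without that library. Its relative Neurod2 (chr11:98325415-98329648) was at 76.8, 43.1, 53.2 and 80.4 CPM against 10.03, 4.20, 3.25, 2.94 and 5.81 CPM. This was a 12.1-fold fall (log2 -3.60 ± 0.43 SE, adjusted p = 0.000231), again with replicate 1 the highest of the double KO libraries. Slc17a7 (Vglut1), a vesicular glutamate transporter, was at 18.2, 11.6, 16.3 and 17.0 CPM against 2.10, 2.24, 2.76, 2.68 and 2.46 CPM. It fell 6.44-fold (log2 -2.69 ± 0.23 SE, adjusted p = 6.02e-06), with little spread within the double KO.

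DESeq2 called 4 members of this list lower. Tbr1, a factor of early-born glutamatergic neurons, stood at 210, 217, 196 and 244 CPM in Dmrt5 KO and at 125, 102, 113, 97.4 and 196 CPM in the double KO. Double KO replicate 5 lay just below the lowest Dmrt5 KO library, and edgeR did not call Tbr1 (log2 -0.78, adjusted p = 0.121). The second vesicular glutamate transporter Slc17a6 (log2 -0.64) was not called, and its double KO replicate 5 (59.4 CPM) lay above all Dmrt5 KO libraries. Members with values above 0 that were not called included Mef2c, Lmo3, Sox5 and Bcl11b (log2 0.13 to 0.30). Outside the lists, and named after its values were seen, the synaptic vesicle gene Sv2b was at 4.65, 3.27, 3.07 and 3.57 CPM against 0.685, 0.183, 0.267, 0.596 and 0.195 CPM. It fell 9.42-fold (log2 -3.24 ± 0.41 SE, adjusted p = 0.000507).

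Promoter windows of 3 of these genes are shown because each holds at least 1 of 3 letter strings looked for, so the matches were selected. The windows are the 250 bases before an annotated start, from RefSeq (GRCm38.p6), read on the gene's minus strand. CAGATG is an E-box of the kind bound by Neurog and Neurod proteins, and GATACA and ACATTGT are overlapping pieces of the motif known for DM-domain proteins in vitro. Matches on either strand are in capitals.
Nhlh1, chr1:172057597-172057846: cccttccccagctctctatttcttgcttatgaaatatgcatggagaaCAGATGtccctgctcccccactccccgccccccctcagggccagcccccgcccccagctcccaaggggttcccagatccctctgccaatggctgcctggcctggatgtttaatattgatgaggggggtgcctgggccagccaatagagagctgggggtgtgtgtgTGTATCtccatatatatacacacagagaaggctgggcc
Neurod2, chr11:98329646-98329895: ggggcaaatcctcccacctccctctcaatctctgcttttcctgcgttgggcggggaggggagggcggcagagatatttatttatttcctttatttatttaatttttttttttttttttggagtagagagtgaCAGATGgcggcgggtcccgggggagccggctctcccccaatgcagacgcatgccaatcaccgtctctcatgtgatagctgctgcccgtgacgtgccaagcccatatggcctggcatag
Sv2b, chr7:75220020-75220269, 1 of its annotated starts: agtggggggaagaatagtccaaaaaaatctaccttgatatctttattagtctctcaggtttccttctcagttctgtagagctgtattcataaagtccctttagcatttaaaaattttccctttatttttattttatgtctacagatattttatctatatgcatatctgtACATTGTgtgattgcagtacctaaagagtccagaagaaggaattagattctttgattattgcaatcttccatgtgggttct
The Nhlh1 window holds CAGATG starting 203 bases before the start and GATACA, read here as TGTATC, 38 bases before it. The Neurod2 window holds CAGATG at 118 bases and the Sv2b window ACATTGT at 81 bases before the start.

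The strings were then counted in the windows of all tested genes. Windows were found for 36 of the 54 called genes, 44 windows in all. CAGATG was present in 5 of 44 (11.4%; Cldn1, Gcg, Gmnc, Neurod2 and Nhlh1) and in 10.4% of the 15048 windows of tested genes. GATACA was present in 1 of 44 (2.27%) against 3.60%, and ACATTGT in 1 of 44 (2.27%) against 1.32%. A match describes the letters only, and elements outside these windows were not examined.

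Several transcription factors that pattern the pallium fell. Of 14 tested members of that list, 5 fell and none rose, against 0.320% and 0.0123% of all tested genes. The median log2 fold change was -0.46. Emx1, a homeobox gene largely confined to the pallium (chr6:85187438-85204462), stood at 106, 65.2, 59.2 and 64.3 CPM in Dmrt5 KO and at 12.4, 7.99, 9.83, 7.75 and 4.60 CPM in the double KO. Every double KO library lay far below the lowest Dmrt5 KO library. The fall was 8.66-fold (log2 -3.11 ± 0.26 SE, adjusted p = 3.52e-06) and 7.39-fold without Dmrt5 KO replicate 1, the highest of its group. Fezf2, which specifies deep-layer projection neurons (chr14:12342094-12348189), was at 72.0, 56.3, 53.5 and 57.4 CPM against 23.5, 30.9, 32.8, 27.4 and 25.6 CPM. It fell 2.13-fold (log2 -1.09 ± 0.13 SE, adjusted p = 0.000210) with a wide gap between the groups. Tfap2c, an AP-2 factor of pallial progenitors (chr2:172549593-172558622), was at 101, 75.9, 106 and 105 CPM against 25.1, 30.7, 30.7, 40.7 and 34.5 CPM. It fell 2.99-fold (log2 -1.58 ± 0.16 SE, adjusted p = 3.50e-05), from a level in Dmrt5 KO that was 133% of the WT mean.

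The other members changed less. Otx1 had 114 ± 16.5 CPM (n = 4) in Dmrt5 KO and 61.9 ± 13.9 CPM (n = 5) in the double KO (log2 -0.88, adjusted p = 0.00900). Emx2, the paralog of Emx1 and a regulator of the caudal and medial cortex, was at 133, 112, 120 and 109 CPM against 51.2, 76.2, 71.04, 86.7 and 49.8 CPM. Its groups did not overlap, but its call was close to the threshold (log2 -0.82 ± 0.17 SE, adjusted p = 0.0434) and was lost in 8 of the 9 fits without 1 library, at adjusted p up to 0.150. The antisense transcript Emx2os, whose gene overlaps one end of Emx2, also fell (log2 -0.91, adjusted p = 0.00676). Reads in the shared stretch cannot be assigned to either gene in an unstranded library. Lhx2, the selector gene of cortical identity, was at 349, 389, 349 and 330 CPM against 212, 303, 279, 269 and 220 CPM. The groups did not overlap, yet edgeR did not call it (log2 -0.47, adjusted p = 0.127) while DESeq2 did (adjusted p = 0.0184). Gli3, Pax6 and Sp8 were not called, with log2 fold changes of 0.05, 0.28 and 0.72.

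Of 6 tested antihem and ventral pallium genes, which mark the lateral edge of the pallium, 1 fell and none rose. Over all tested genes, 0.320% fell and 0.0123% rose. Dbx1, a homeobox gene of ventral pallial progenitors, stood at 8.95, 11.1, 10.6 and 10.3 CPM in Dmrt5 KO and at 2.15, 3.52, 5.29, 3.79 and 3.24 CPM in the double KO. It fell 2.84-fold without overlap (log2 -1.50 ± 0.22 SE, adjusted p = 0.00238). The remaining 5 antihem and ventral pallium genes, the secreted factors Sfrp2, Tgfa, Fgf7, Nrg1 and Nrg3, had values above 0 (log2 0.13 to 0.64) and none was called. Tfap2e, an AP-2 relative of Tfap2c, was at 14.6, 17.8, 10.2 and 14.3 CPM against 6.85, 2.47, 2.05, 0.980 and 2.77 CPM (log2 -2.24 ± 0.36 SE, adjusted p = 0.00602).

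**Figure D3:**
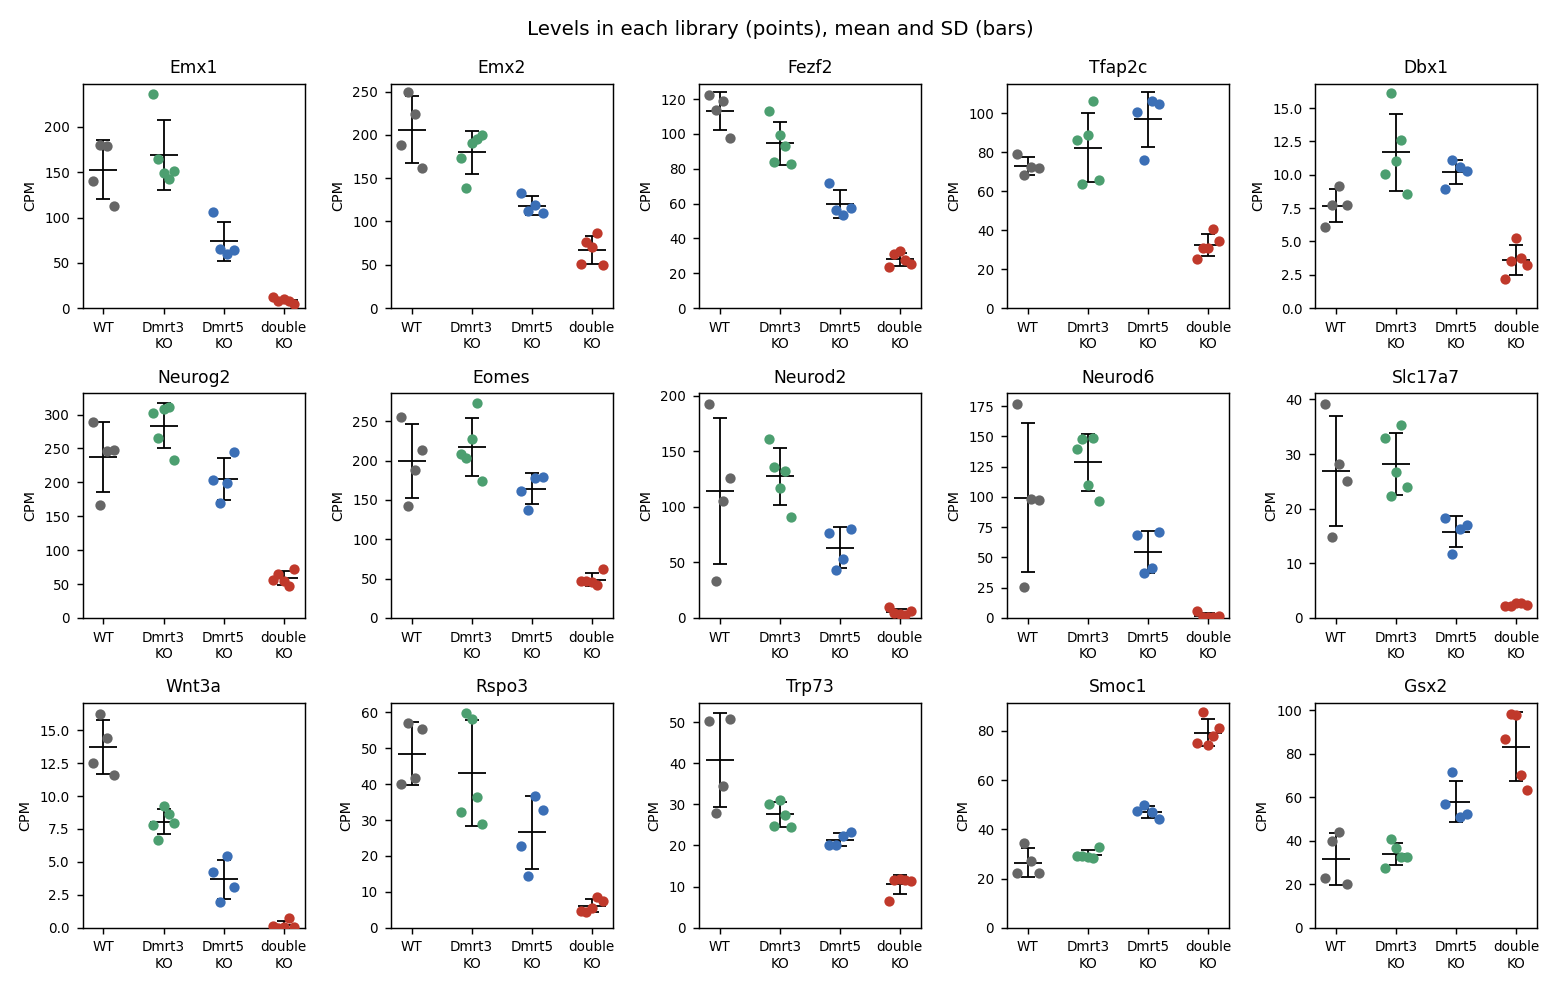
CPM of 15 genes in each of the 18 libraries (points) by genotype, with mean and SD (bars) and axes that start at 0. Emx1, Neurog2, Eomes, Neurod2, Neurod6 and Slc17a7 separate the double KO from the other 3 genotypes, Smoc1 is highest in the double KO, and Gsx2, which was not called, overlaps between Dmrt5 KO (51.1 to 71.8 CPM) and the double KO (63.3 to 98.2 CPM).

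At the dorsal midline, 3 of 15 tested cortical hem genes fell and none rose, against 0.320% and 0.0123% of all tested genes. The median log2 fold change was -0.91. Gdf7 was not tested because of its low counts. Wnt3a, the hem ligand needed for growth of the hippocampus (chr11:59248033-59290752), stood at 4.20, 1.95, 5.46 and 3.09 CPM in Dmrt5 KO and at 0.0978, 0, 0.0445, 0.724 and 0.0390 CPM in the double KO. These were 2, 0, 1, 17 and 1 counts in the double KO, so replicate 4 supplied most of what remained. The fall was 19.5-fold (log2 -4.29 ± 0.59 SE, adjusted p = 0.00131), and without replicate 4 the log2 fold change was -6.22. Rspo3, a secreted enhancer of Wnt signalling (chr10:29452416-29535867), was at 22.7, 14.3, 36.7 and 32.7 CPM against 4.55, 4.47, 5.43, 8.48 and 7.57 CPM (log2 -2.12 ± 0.29 SE, adjusted p = 0.00131). Its relative Rspo2 was at 16.5, 10.8, 23.3 and 20.05 CPM against 2.84, 3.56, 4.54, 7.45 and 6.24 CPM (log2 -1.84 ± 0.27 SE, adjusted p = 0.00238). Wnt3a and Rspo2 were not called with only the 9 libraries in the fit (adjusted p = 0.112 and 0.0714). For both Rspo genes the lowest Dmrt5 KO library, replicate 2, stayed above the highest double KO library, replicate 4.

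Several hem genes that were not called had their highest double KO value in replicate 4, the library with 2099 CPM of mesenchyme markers. Bmp4 was at 16.6 CPM there and at 0.702 to 1.47 CPM in the other 4 double KO libraries, and Msx1 at 70.8 CPM against 0.234 to 4.06 CPM. Both genes are also expressed in mesenchyme, and the part of that tissue in their values was not tested. Wnt3a, Rspo2 and Rspo3 kept their calls with the mesenchyme level as a covariate, which ended 18 of the 54 calls and gave 44 lower genes. The calls it ended included Otx1, Emx2, Sp5, Trp73, Mcidas, Rtn4rl2 and Foxn4. Leaving out the library with the most mesenchyme RNA in each genotype ended 20 calls, and again 44 genes were lower. Lmx1a, a transcription factor of the hem and roof plate, was at 5.44, 4.93, 5.14 and 4.80 CPM against 1.47, 2.37, 2.76, 3.88 and 1.33 CPM. It did not overlap but missed the threshold (log2 -1.10 ± 0.23 SE, adjusted p = 0.0511, and 0.000599 with DESeq2). Wnt8b was at 33.2, 24.6, 50.7 and 41.2 CPM against 7.68, 16.7, 13.3, 23.9 and 26.8 CPM, overlapped in 1 library of each group and was not called (log2 -1.08, adjusted p = 0.256).

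Downstream of Wnt signals, 1 of 14 Wnt target genes fell and none rose, with a median log2 fold change of -0.27. The one was Sp5, a zinc-finger gene directly activated by Wnt signalling, at 5.59, 3.03, 6.97 and 6.81 CPM against 0.929, 0.776, 2.80, 1.75 and 0.624 CPM (log2 -2.02 ± 0.37 SE, adjusted p = 0.0191). The groups did not overlap, but the call was lost in 4 of the 9 fits without 1 library and with the mesenchyme covariate. Axin2, a general feedback target, overlapped between the groups (29.6 to 54.7 and 24.5 to 61.9 CPM) and was not called (log2 -0.27). The Wnt receptor Fzd9, which was on no list and was named after its values were seen, had 16.8 ± 2.12 CPM in Dmrt5 KO and 8.56 ± 1.32 CPM in the double KO (log2 -0.97, adjusted p = 0.00597).

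The list of 10 Cajal-Retzius neuron genes had a median of -0.21. Of these genes 1 fell, against 0.320% of all tested genes. It was Trp73 (p73), a factor of the Cajal-Retzius cells that arise from the hem, at 20.1, 20.1, 22.2 and 23.3 CPM against 6.55, 11.5, 11.9, 11.5 and 11.3 CPM (log2 -1.02 ± 0.19 SE, adjusted p = 0.0175, lost in 2 of the 9 fits without 1 library and with the mesenchyme covariate). Reln, the signal protein that these cells secrete, was not called (log2 0.31). Gmnc, Ccno and Mcidas, regulators of multiciliated cell formation, were on no list and were picked out after their values were seen, because they fell. Gmnc was at 1.83, 1.12, 2.23 and 0.780 CPM against 0, 0.0457, 0.133, 0.511 and 0 CPM (log2 -3.36, adjusted p = 0.0357, and log2 -4.91 without double KO replicate 4). Ccno was at 4.99, 2.94, 4.11 and 3.57 CPM against 0.245, 0.685, 1.07, 1.92 and 0.273 CPM (log2 -2.21, adjusted p = 0.0170), and Mcidas had means of 1.58 and 0.355 CPM (log2 -2.13, adjusted p = 0.0384). None of the 3 overlapped, and all 3 lost their call in 3 or more of the 9 fits without 1 library. None of 8 tested choroid plexus genes was called (median -0.48), although Folr1 had a log2 fold change of -1.84 (adjusted p = 0.0682, and 0.00204 with DESeq2). Ttr, the main secreted product of that tissue, was at 0.912 to 10.1 CPM in Dmrt5 KO and 0.195 to 4.65 CPM in the double KO, against a WT mean of 152 CPM.

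The subpallial genes, which mark the ventral neighbour of the pallium, were not called by edgeR. All 12 tested subpallial progenitor genes had values above 0 (median log2 0.42), as did 19 of 21 GABAergic and lateral ganglionic eminence genes (median 0.44) and 6 of 6 medial ganglionic eminence genes (median 0.40), while 8417 of the 16236 tested genes had a value above 0. Members of a list share the libraries, so their signs are not independent observations. Summed CPM overlapped between the groups for each of these lists. In Dmrt5 KO and the double KO it ran from 1414 to 1698 and 1576 to 2736 for subpallial progenitor genes. The ranges were 1448 to 1643 and 1420 to 2637 for the GABAergic list, and 283 to 419 and 289 to 720 for the medial ganglionic eminence. Gsx2, the selector of the lateral ganglionic eminence, was at 56.9, 71.8, 51.1 and 52.4 CPM in Dmrt5 KO and at 86.7, 98.2, 98.0, 70.1 and 63.3 CPM in the double KO (log2 0.52 ± 0.23 SE, adjusted p = 0.857). It was called with each library's slope of counts on gene length as a covariate (log2 0.70, adjusted p = 0.0359). That slope ran from 0.803 to 0.892 in Dmrt5 KO and from 0.846 to 1.21 in the double KO. Double KO replicates 4 and 5, at 0.969 and 1.21, lay above every Dmrt5 KO library. Dlx2, which promotes GABAergic differentiation, was at 339, 391, 311 and 382 CPM against 511, 636, 530, 368 and 520 CPM (log2 0.53, adjusted p = 0.521). In both, the overlap came from double KO replicate 4 alone or with replicate 5. Gad2, a GABA-synthesising enzyme, reached 442 CPM in double KO replicate 5 and 126 CPM in replicate 4, against 121 to 169 CPM in Dmrt5 KO (log2 0.86, adjusted p = 0.429). DESeq2 called 1 gene of the 3 lists, Six3 (log2 0.48, DESeq2 adjusted p = 0.0360), a homeobox gene at 102 to 125 CPM in Dmrt5 KO and 134 to 182 CPM in the double KO.

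The 2 genes that rose lie outside the lists. Smoc1, a secreted calcium-binding protein that modulates Bmp signalling (chr12:81026808-81186414), stood at 47.4, 49.96, 46.9 and 44.3 CPM in Dmrt5 KO and at 74.9, 87.9, 74.4, 78.0 and 81.2 CPM in the double KO. The lowest double KO library was well above the highest Dmrt5 KO library. The rise was 1.68-fold (log2 0.75 ± 0.12 SE, adjusted p = 0.00529), and the call was kept in all alternative fits. WT stood at 26.5 ± 5.80 and Dmrt3 KO at 29.7 ± 1.79 CPM. Foxn4, a forkhead factor of spinal interneuron and retinal progenitors named after its values were seen, was at 0.890, 1.08, 0.717 and 1.17 CPM against 2.05, 3.24, 2.94, 2.64 and 4.49 CPM. Its 3.17-fold rise (log2 1.66 ± 0.35 SE, adjusted p = 0.0488) lost its call in 7 of the 9 fits without 1 library.

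**Figure D4:**
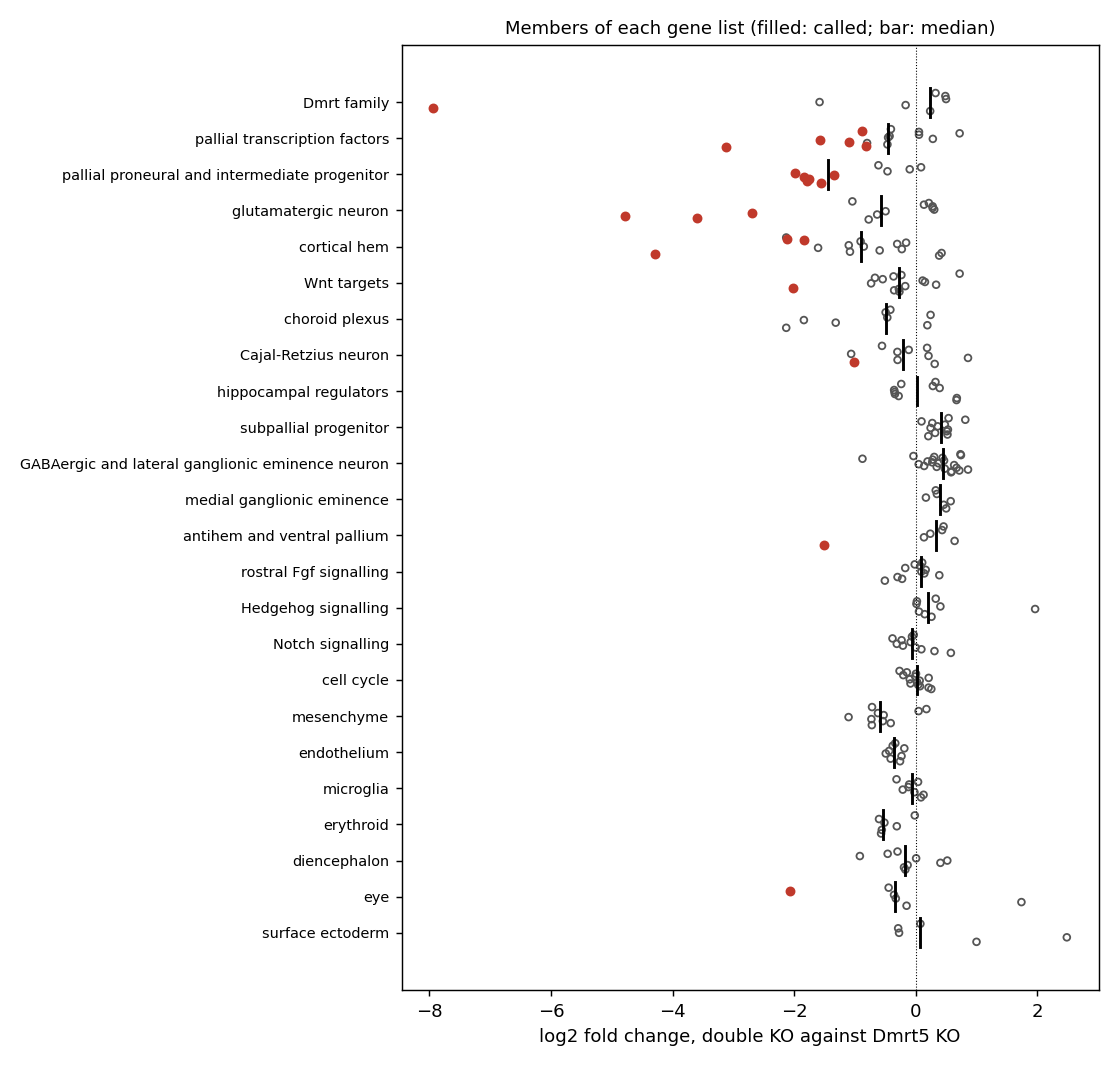
Log2 fold change of the double KO against Dmrt5 KO (x axis) for each tested member of the 24 gene lists (y axis). Filled red points are called genes, open points are not called, and black bars are list medians, which run from -1.45 in the pallial proneural list to 0.44 in the GABAergic list.

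The remaining lists had no called member apart from the eye list, in which Dct fell (4.20-fold, log2 -2.07 ± 0.30 SE, adjusted p = 0.00195). Dct encodes a melanin-synthesis enzyme that is also expressed in the developing telencephalon, and had 1.69 ± 0.418 CPM in Dmrt5 KO and 0.398 ± 0.206 CPM in the double KO. The median log2 fold changes were 0.01 for 14 cell cycle genes, -0.06 for 11 Notch genes, 0.20 for 8 Hedgehog genes, 0.08 for 11 rostral Fgf genes and 0.02 for 10 hippocampal regulators. Of other cell types, mesenchyme had a median of -0.58, endothelium -0.36, erythroid cells -0.54, microglia -0.07, the diencephalon -0.17 and surface ectoderm 0.08. Summed endothelial markers ran from 217 to 327 CPM in Dmrt5 KO and 149 to 346 CPM in the double KO, summed microglial markers from 51.0 to 78.5 and 30.4 to 84.4 CPM, and summed erythroid markers from 3379 to 7708 and 1156 to 5493 CPM. In each of these 3 cell types the double KO range reached below the Dmrt5 KO range, and the part of these cells in the gene results was not tested.

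The other called genes were named after their values were seen. Rtn4rl2, a Nogo receptor relative, had 10.2 ± 1.48 CPM in Dmrt5 KO and 2.75 ± 0.926 CPM in the double KO (log2 -1.89, adjusted p = 0.0138). Nrn1 (neuritin) had 70.6 ± 7.38 and 33.5 ± 6.58 CPM (log2 -1.07, adjusted p = 0.00187), and the neurexophilin Nxph4 112 ± 25.4 and 49.6 ± 14.4 CPM (log2 -1.18, adjusted p = 0.0220). Smaller falls were those of the zinc transporter Tmem163 (log2 -0.89), the sulfotransferase Chst8 (-1.28), the actin-related gene Actr3b (-1.08) and Prr15 (-0.99). Of 21 genes that fell with a mean log2 CPM under 1, the tight-junction gene Cldn1 was at 3.66, 1.91, 4.74 and 3.51 CPM against 0.538, 0.228, 0.356, 1.62 and 0.312 CPM (log2 -2.49, adjusted p = 0.0117, and -3.26 without double KO replicate 4). Gcg, the glucagon gene, held 11 to 21 counts per Dmrt5 KO library and 0 to 3 per double KO library (log2 -3.38, adjusted p = 0.00187). Mafa, Foxb2, Ism2, Pirt, Tacr3 and Abcg5 also fell from low levels (log2 -3.10, -2.92, -1.96, -1.88, -1.59 and -1.65). The lincRNA Gm47854 and the pseudogenes Gm11410, Gm6023, Gm15778, Gm12231, Gm5566 and Gm6576 fell (log2 -2.94 to -1.58), and their reads may come from near-identical genes. Dmrta2os, an antisense neighbour of Dmrta2, fell by 0.71 with an adjusted p of 0.0499. Among these genes, Tacr3 and Gm6576 lost the call in 8 of the 9 fits without 1 library, and Pirt, Dmrta2os, Gm47854 and Gm5566 in 7. Gm6023 lost it in 6, Mafa, Foxb2, Abcg5 and Gm15778 in 5, Nxph4 and Gm12231 in 4, and Rtn4rl2 and Cldn1 in 1.

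Loss of Dmrt3 where Dmrt5 was intact was then set beside these values. Dmrt3 KO and WT share no library with the main comparison. None of the 51 genes other than Dmrt3 was called between them, where 0.0123% of tested genes were. Of the 51 genes, 24 had values below WT and 27 above, with a median log2 fold change of 0.07, and over all tested genes 50.5% lay below with a median of -0.0036. At an unadjusted p under 0.05, 10 were lower and 7 higher, against 5.61% and 1.55% of all tested genes. Emx1, for example, was at 140, 180, 179 and 113 CPM in WT and at 236, 164, 149, 143 and 151 CPM in Dmrt3 KO (log2 0.14, adjusted p = 0.791). Neurog2 was at 290, 167, 246 and 248 CPM against 302, 265, 308, 311 and 233 CPM (log2 0.26, adjusted p = 0.650). In both genes the groups overlapped. Tfap2e, Tacr3 and Prr15 lay higher in every Dmrt3 KO library than in any WT library and 7 of the 51 genes lay lower in every one, against 0.696% and 1.67% of all tested genes. Among the latter was Wnt3a, at 12.53, 16.2, 14.4 and 11.6 CPM in WT and 7.80, 6.67, 9.21, 8.68 and 7.93 CPM in Dmrt3 KO (log2 -0.76, adjusted p = 0.650).

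The difference between the 2 effects of Dmrt3 loss was tested directly as an interaction. It is the log2 fold change in Dmrt5-null tissue minus that in Dmrt5-intact tissue, and it uses the 9 libraries of the main comparison too. The interaction was negative for 23 genes (0.142%) and positive for none (0.00%). At an unadjusted p under 0.05, 1200 genes were positive (7.39%) and 297 negative (1.83%), and DESeq2 called 65 and 60. It was -5.16 for Neurod6, -3.76 for Neurod2, -3.26 for Emx1 and -2.76 for Slc17a7 (adjusted p = 0.00554, 0.00595, 0.000328 and 0.000465). Among proneural genes it was -2.06 for Nhlh1, -2.05 for Neurog2, -1.95 for Neurod1, -1.87 for Eomes and -1.77 for Neurog1 (adjusted p up to 0.0265). The AP-2 genes Tfap2e and Tfap2c had -3.21 and -1.76, and Dbx1 -2.11. For the hem genes Wnt3a, Rspo3 and Rspo2 it was -3.52, -1.95 and -1.68 and was not called (adjusted p = 0.106, 0.0941 and 0.125), nor was it for Fezf2 (-0.83), Emx2 (-0.63) and Trp73 (-0.45). Leaving out Dmrt5 KO replicate 1 or replicate 5 reduced the number of negative interactions from 23 to 15.

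Because the interaction subtracts the effect in Dmrt5-intact tissue, a higher Dmrt3 KO level adds to it. The Dmrt3 KO value was above WT for 22 of the 23 genes, all but Sv2b, and 1 of these differences was called. The called one was Dmrt1, the neighbour of Dmrt3 on chromosome 19. It stood at 11.3, 12.46, 11.7, 10.2 and 9.40 CPM in Dmrt3 KO against 2.59, 4.22, 3.94 and 2.55 CPM in WT, so it rose with Dmrt3 loss alone (log2 1.73, adjusted p = 0.000553). In Dmrt5-null tissue it was at 2.42, 2.57, 2.87 and 2.52 CPM with Dmrt3 and at 2.45, 2.51, 3.91, 3.49 and 2.92 CPM without it (log2 0.24, adjusted p = 0.997). The interaction was -1.50 (adjusted p = 0.0265). Its origin was not tested. The family member Dmrta1 was not called in Dmrt5-null tissue (log2 -0.17).

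The level that Dmrt5 KO tissue had already reached differed among the genes that fell further. The comparison of Dmrt5 KO with WT shares the Dmrt5 KO libraries with the main one, so the values are given side by side as levels only. Neurog2 stood at 86.0% of the WT mean in Dmrt5 KO against 24.8% after loss of both genes, and Eomes at 82.1% and 24.4%. Emx1 stood at 48.2% and 5.57%, Neurod6 at 54.8% and 2.01%, and Neurod2 at 55.5% and 4.59%. For the hem genes, Wnt3a stood at 26.8% and 1.32%, and Rspo3 at 54.8% and 12.6%. Tfap2c and Dbx1 were each at 133% in Dmrt5 KO and at 44.4% and 46.9% in the double KO. Smoc1, which rose, stood at 178% and 299%.

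**Figure D5:**
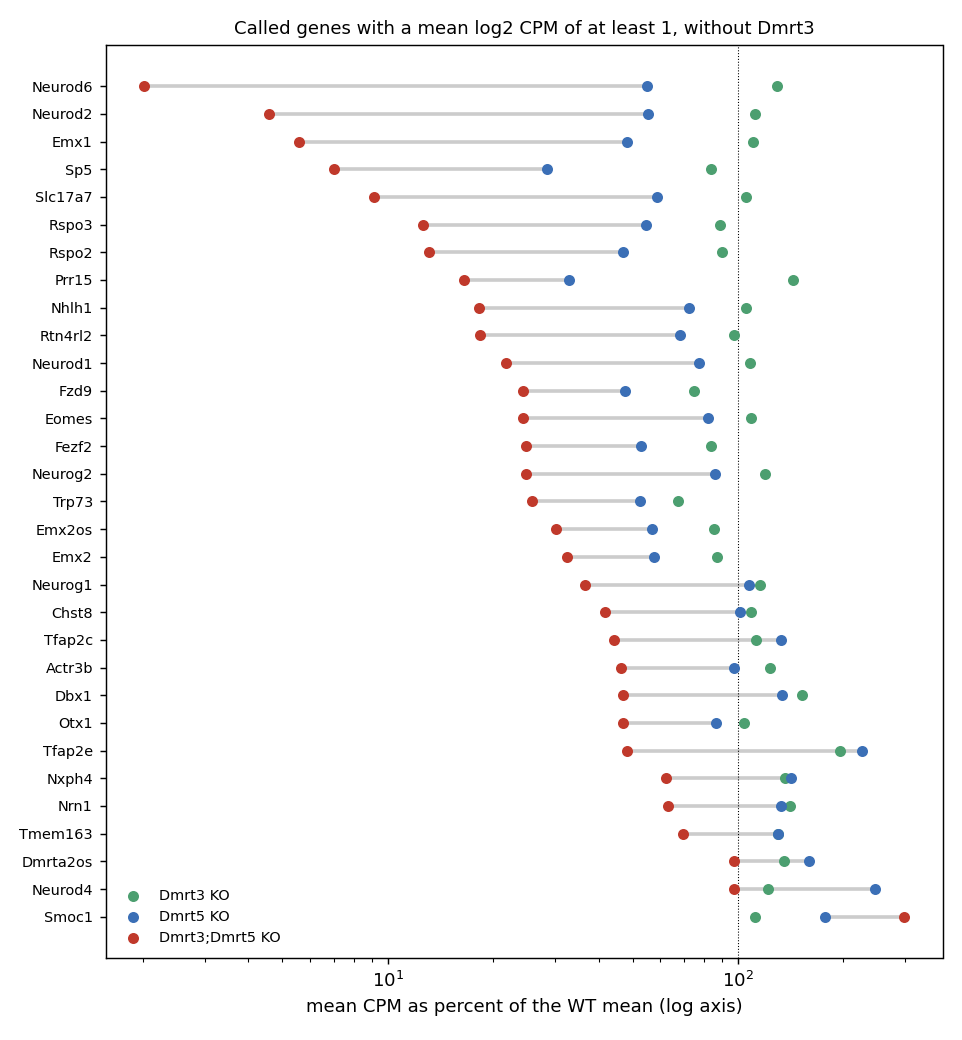
Mean CPM as a percentage of the WT mean (log axis) in Dmrt3 KO, Dmrt5 KO and the double KO for the 31 called genes other than Dmrt3 whose mean log2 CPM over the 9 libraries reached 1; grey lines join Dmrt5 KO to the double KO. Neurod6 has the lowest double KO level (2.01%) and Smoc1 the highest (299%).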

How the data were processed

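Raw read counts per Ensembl gene and library were deposited by the authors, with no normalisation. Per the submitters' processing notes, STAR 2.3.0e, featureCounts 1.4.6-p1, DESeq2 1.8.2 and build mm10 were used. The sources used here do not give the annotation release, strand setting or treatment of multiply matching reads. The TruSeq RNA Sample Prep Kit v2, per the labels' protocols, does not mark strand. The 5 summary entries per file were 0. Symbols and coordinates came from GENCODE M21 (36602 of 38355 genes matched, the rest holding 0.397% of counts). With edgeR 4.0.16 (R 4.3.3), filterByExpr by genotype left 16236 genes, scaled by TMM; the quasi-likelihood fit took all 18 libraries, with a mean for each of the 4 genotypes. Tests were two-sided and Benjamini-Hochberg adjusted over all tested genes. The SE came from the fold change and its F statistic. Replicates of a genotype differed by more than sampling noise. DESeq2 1.42.0 and the other alternatives are in the closing section. The fit was also run on counts simulated independently for each gene and library. Such counts cannot show the effect of deviations that the genes of a library share. Members, lists and tests were chosen with earlier results of these data known. The rule for names took Dmrt genes, 13 patterning regulators, the 10 largest called changes per direction (mean log2 CPM of 1 or more), and up to 3 members per list with the lowest adjusted p.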

Additional observations from a re-analysis of the deposited data

Results flagged for a closer look

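In 13 of 242 groups of libraries (5.37%), 1 library stood apart from the others of its genotype by Dixon's test. The nominal rate of the test is about 1 in 20. It does not apply to this set, because the groups share the same 9 libraries and include the called genes. In Dmrt5 KO these were replicate 1 for Emx1 (105.7 CPM, the others 59.2 to 65.2) and replicate 2 for Tfap2c (75.9 CPM), Fzd9 (13.6 CPM), Folr1 (0.829 CPM) and Mcidas (0.788 CPM), each below the others. In the double KO, replicate 5 held more Pax6 (459 CPM, the others 275 to 290), Ptch1 (73.2 CPM, the others 5.96 to 10.3), Lhx1 (31.7 CPM) and Eomes (62.3 CPM) and less Folr1 (0.117 CPM). Replicate 4 held more of the surface ectoderm keratins Krt5 (4.39 CPM) and Krt14 (3.24 CPM), and replicate 1 less Trp73 (6.55 CPM).

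The effect of Dmrt3 loss differed with the state of Dmrt5, by the interaction test, in 23 genes. The interaction on the log2 scale was -5.16 for Neurod6, -4.05 for Gcg, -3.76 for Neurod2, -3.32 for Cldn1, -3.26 for Emx1, -3.21 for Tfap2e, -2.94 for Sv2b and -2.76 for Slc17a7. It was -2.31 for Tacr3, -2.21 for Ism2, -2.11 for Dbx1, -2.06 for Nhlh1, -2.05 for Neurog2, -1.95 for Neurod1, -1.87 for Eomes, -1.77 for Neurog1 and -1.76 for Tfap2c. It was -1.57 for Nrn1, -1.51 for Prr15, -1.50 for Dmrt1, -1.38 for Actr3b, -1.27 for Tmem163 and -1.15 for Dmrta2os. All 23 were negative.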

How the results depend on the processing

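Of the 54 called genes, 30 kept the call in all 9 fits without 1 library, 17 kept it under every one of the 21 alternatives in which they were tested, and none changed direction. Of 63 named genes that were not called, 14 were called under 1 or more alternatives, among them Lmx1a in 6, Barhl2, Ebf2, Folr1 and Tnfrsf19 in 3, Gsx2 in 2 and Wnt8b in 1. Genes lower in the double KO, 52 in the report, numbered 96 with DESeq2, 19 with only the 9 libraries compared in the fit, 111 with each library's slope of counts on gene length as a covariate, and 33 without Dmrt5 KO replicate 1 and double KO replicate 5 (chosen after seeing the data). Genes higher, 2 in the report, numbered 11 with DESeq2, 10 with the length slope, and 1 with no filter on low counts, with embryo sex as a factor, with the mesenchyme covariate, or without those 2 libraries. Negative interactions, 23 in the report, numbered 60 with DESeq2 and 15 without those 2 libraries, and positive ones, 0 in the report, 65 with DESeq2 and 1 with the length slope. Leaving out 1 library at a time gave 33 (without Dmrt5 KO replicate 4) to 74 (without double KO replicate 4) lower genes, 1 to 5 higher, 15 to 31 negative and 0 to 1 positive interactions. The cause of these shifts was not tested. Scaling by relative log expression gave 53 lower and 2 higher genes.

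The replicate numbers were not taken as pairs. Deviations of same-numbered libraries from their group means correlated at 0.48, 0.06, 0.70 and 0.49, and those of differently numbered libraries at -0.46 to 0.39. For Dmrt5 KO replicates 1, 4 and 5 the same-numbered double KO library correlated best. Replicate 2 of Dmrt5 KO correlated best with replicate 3 of the double KO (0.35). Whether the numbers mark something shared, such as a litter, was not tested. The replicate block ended 13 of the 54 calls, Emx2, Trp73 and Foxn4 among them. With the replicate block, 46 genes were lower, 1 higher, and 29 interactions were negative and 0 positive. With the replicate block and length slope together, 90 were lower and 6 higher, and 32 interactions were negative.

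At this depth the low genes rest on few reads, such as Wnt3a with 0 to 17 counts per double KO library.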
